A study of Mus musculus with 4 samples.

Results

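The genes described are 53 sarcomere and Z-disc genes of striated muscle, given as a list of names by function and chosen with earlier results of these data known, among the 19938 genes that had a probe set of their own on the array. A gene with several probe sets is represented by the one with the highest mean over all arrays. All 53 had a probe set paired with that gene alone. They comprise 12 isoforms typical of fast fibres, 8 typical of slow fibres, 4 developmental or cardiac isoforms, 8 genes of the thin filament and of filament length, 9 of the Z-disc and M-band, a group of 6 made up of kinases, a myosin-binding protein and stretch-linked proteins, and 6 that are also expressed outside striated muscle.

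Whole back skin was taken from C57Bl6 mice at postnatal day 22 and ZT22, that is 22 hours after lights on, while the hair follicles were resting (telogen). The 2 knockout mice (KO) had both copies of Bmal1 deleted in the germline, so that every tissue lacks the gene. The 2 heterozygous mice (het) carried one mutant and one wild-type allele, so the comparison is with partial and not with full Bmal1 dosage. The mice were littermates, and each gave 1 Affymetrix array. Values are normalized log2 signals, differences are KO minus het, and SEs are limma's moderated ones with n = 2 arrays per genotype throughout.

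The sarcomere is the contractile unit of striated muscle, in which myosin thick filaments slide along actin thin filaments anchored at the Z-disc, while troponin and tropomyosin on the thin filament make contraction depend on calcium. Fast and slow fibres build it from different genes for the same part, so that myosin heavy chains, light chains and troponins serve as fibre type markers. In mouse back skin, striated fibres belong mainly to the panniculus carnosus, a thin sheet of skeletal muscle under the dermis, and a whole-skin sample also holds the smooth muscle of vessels and of the muscles that raise the hairs. In bulk tissue, fewer cells of a type and less RNA per cell cannot be told apart.

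Promoter windows of members that the results turn on are shown first. They run from 250 bases before to 50 bases after the annotated start (RefSeq, GRCm38.p6), 5′ to 3′ on the gene's strand. Of the 53 members, 40 had such a window. The letters CACGTG, the E-box that BMAL1 and CLOCK bind, CAGCTG, an E-box that myogenic factors bind, and the MEF2 site, an A/T-rich site of the MEF2 muscle factors, were searched on both strands, and the matches are in capitals. No 2 of the matches shown overlap. Myh1 and Myh4 are neighbouring fast myosin heavy chain genes, Actn2, Mybph and Myom3 were among the members that rose most, and Mylk4 was the one that fell by limma's adjusted p. Every window shown holds a match. Ankrd2 and Csrp3, which rose by 1.71 and 1.65, had windows with none of the 3 motifs. The same held for Mybpc2 and Tmod1, which rose by 0.81 and 0.77.
Myh1 (chr11:67199852-67200151, plus strand): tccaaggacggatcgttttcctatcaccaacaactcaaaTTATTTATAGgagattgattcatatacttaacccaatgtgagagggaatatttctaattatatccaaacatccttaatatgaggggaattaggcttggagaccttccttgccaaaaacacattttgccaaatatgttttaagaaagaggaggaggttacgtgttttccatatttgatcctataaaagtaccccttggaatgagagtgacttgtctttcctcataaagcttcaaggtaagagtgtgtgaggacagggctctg
Myh4 (chr11:67237562-67237861, plus strand): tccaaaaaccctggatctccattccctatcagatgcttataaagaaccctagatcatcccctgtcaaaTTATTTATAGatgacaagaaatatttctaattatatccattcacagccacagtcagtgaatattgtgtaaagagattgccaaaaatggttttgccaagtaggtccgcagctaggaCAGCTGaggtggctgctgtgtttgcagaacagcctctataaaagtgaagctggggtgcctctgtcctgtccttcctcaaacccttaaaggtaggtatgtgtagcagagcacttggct
Actn2 (chr13:12340683-12340982, minus strand): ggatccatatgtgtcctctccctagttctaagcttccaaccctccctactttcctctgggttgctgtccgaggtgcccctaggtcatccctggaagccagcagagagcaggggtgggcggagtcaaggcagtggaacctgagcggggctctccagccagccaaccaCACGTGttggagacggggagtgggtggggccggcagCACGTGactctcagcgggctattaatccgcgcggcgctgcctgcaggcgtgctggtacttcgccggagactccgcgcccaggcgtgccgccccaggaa
Mybph (chr1:134193198-134193497, plus strand): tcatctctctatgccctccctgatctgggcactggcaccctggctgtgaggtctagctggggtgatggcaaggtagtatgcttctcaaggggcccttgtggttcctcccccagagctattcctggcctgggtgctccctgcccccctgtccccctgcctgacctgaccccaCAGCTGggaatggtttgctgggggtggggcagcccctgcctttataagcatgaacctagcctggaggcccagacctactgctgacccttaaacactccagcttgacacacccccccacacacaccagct
Myom3 (chr4:135759465-135759764, plus strand): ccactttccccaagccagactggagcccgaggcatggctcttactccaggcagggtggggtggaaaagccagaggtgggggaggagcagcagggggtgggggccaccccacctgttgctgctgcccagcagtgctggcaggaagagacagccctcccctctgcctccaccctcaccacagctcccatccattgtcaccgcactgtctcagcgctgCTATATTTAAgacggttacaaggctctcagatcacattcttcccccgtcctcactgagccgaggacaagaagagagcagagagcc
Mylk4 (chr13:32783915-32784214, minus strand): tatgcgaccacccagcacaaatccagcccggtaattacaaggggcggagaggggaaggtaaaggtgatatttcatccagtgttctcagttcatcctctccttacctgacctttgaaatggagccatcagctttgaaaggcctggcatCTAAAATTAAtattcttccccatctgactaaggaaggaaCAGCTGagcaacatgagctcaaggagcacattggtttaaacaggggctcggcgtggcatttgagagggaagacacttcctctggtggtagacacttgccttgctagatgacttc

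The window of Actn2 held CACGTG at 2 places, at -84 and -48 from the start. Among the 40 members only Actn2 and Nebl had this motif, in 2 of 51 member windows (3.92%), against 7.15% of all 32851 windows. CAGCTG was present in 17 of 51 member windows (33.3%), against 16.3% of all windows. The MEF2 site was in 8 of 51 (15.7%), against 3.19% of all. Myh1 and Myh4 carried the same MEF2 match at -211 and -182. Mylk4 held a MEF2 match at -103 and CAGCTG at -64, so it shared these motifs with genes that rose. These matches describe the letters of the windows and do not show that a factor binds there.

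Some facts of the whole series bear on what follows. Bmal1 itself (Arntl) read 8.29 and 8.16 in the KO arrays, against 8.90 and 9.08 in the het arrays, a difference of -0.77 (SE 0.12, limma adjusted p = 0.015). Its probe set may include probes outside the deleted part. Pairs of arrays correlated at 0.966 to 0.988 over tested probe sets. The lowest of these was between KO array 1 and het array 2. Keratinocyte and fibroblast markers were present in all 4 arrays, with Krt14 at 12.1 and 11.8 in KO arrays, against 12.1 and 11.5 in het arrays, and Col1a1 at 12.7 in both KO arrays, against 12.8 and 12.6 in het arrays. Het array 2 stood apart from het array 1 in several cell types. It was lower by a median of -0.50 over 6 keratinocyte genes, -0.67 over 4 adipocyte genes and -0.21 over 6 fibroblast genes, where the median over all tested probe sets was -0.08. Of 16341 probe sets tested, 323 (1.98%) had an adjusted p under 0.05 by limma, 241 higher (1.47%) and 82 lower (0.502%) in KO skin. That number rests on which probe sets enter the fit. With the probe sets that match several genes included, 0 of 17557 (0.00%) passed, and none of the calls given here was made, with a lowest member adjusted p of 0.094. At an unadjusted p under 0.05 that fit called 38 members and the one without them 39.

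Most sarcomere genes were higher in KO skin. Of the 53 members, 52 lay above the limit for testing and Myh3 did not. By limma's adjusted p, 15 rose (1.47% of all tested probe sets), 1 fell (0.502% of all) and 36 did not pass. The 1 that fell, Mylk4, passed the limit for testing through its het arrays. At an unadjusted p under 0.05 there were 35 higher and 4 lower, that is most of the 52, where 11.6% of all tested probe sets were higher and 6.38% lower at the same limit. Both KO arrays lay above both het arrays for 37 members, where this holds for 27.8% of all tested probe sets, and both lay below for 5, against 22.1%. The median difference of the members was 0.54, and that of all tested probe sets 0.02. The difference was above 0 for 41 of the 52, against 54.1% of all. The members belong to one tissue and are not independent of each other. Leaving out 1 array changed the calls. Without KO array 1, 6 members passed (Actn2, Ankrd2, Lmod3, Mybph, Myom3 and Nexn, all among the 16), and the other 10 did not, Mylk4 included. Without het array 1, 13 of the 16 passed, with Csrp3, Myom2 and Myot lost. In that setting the slow isoforms Myh7, Myl2, Myl3, Tnnc1 and Tnni1 had larger falls, from -2.09 for Myl2 to -0.74 for Myl3. Without a filter on dim probe sets 10 of the 16 passed, and the calls of Ankrd2, Csrp3, Mybpc1, Myom2, Myot and Tmod1 ended. Those of Ankrd2 and Csrp3 also ended with a robust variance prior. Without KO array 2 or het array 2 all 16 passed, among 25 members in each case. KO array 1 gave the highest value of the 4 arrays for 36 of the 52 members, against 35.4% of all tested probe sets. Het array 1 gave the lowest for 34 of the 52, against 2371 of all 16341. Arrays of one genotype also differed in the members as a set. Het array 2 exceeded het array 1 by a median of 0.24, and KO array 1 exceeded KO array 2 by 0.29. Over all tested probe sets these medians were -0.08 and 0.05.

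**Figure D1:**
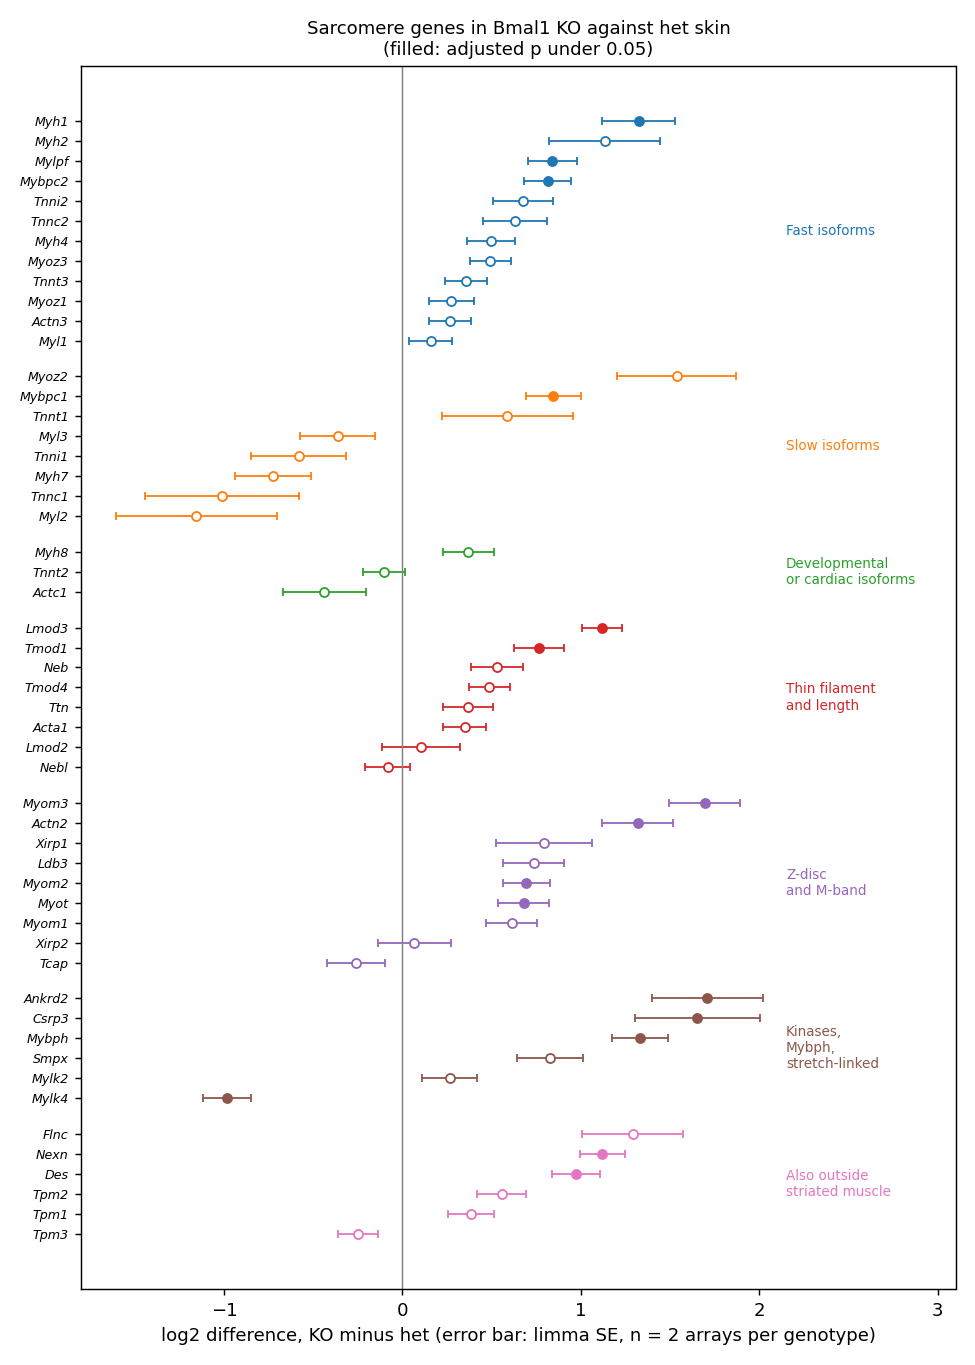
Log2 difference (KO minus het, horizontal axis) of the 52 tested sarcomere genes, grouped by role, with limma SEs. Filled points have an adjusted p under 0.05. Fast isoforms lie right of 0, slow isoforms spread from -1.16 for Myl2 to 1.54 for Myoz2, and Mylk4 is the 1 filled point left of 0.

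Fast-fibre isoforms were all higher in KO skin. All 12 had KO arrays above het arrays, as 27.8% of all tested probe sets did, with a median difference of 0.56 and a range of 0.16 to 1.32. Myh1, Mylpf and Mybpc2 rose by adjusted p (1.47% of all), and 10 of the 12 were higher at an unadjusted p under 0.05 (11.6% of all). Among the 3 adult fast myosin heavy chains, Myh1 (type IIx) had 12.3 and 11.7 in KO arrays, against 10.4 and 10.9 in het arrays. It rose by 1.32 (SE 0.21, limma adjusted p = 0.015), a 2.50-fold difference. Myh2 (type IIa) had 10.5 and 9.54 in KO arrays, against 8.46 and 9.33 in het arrays. Its groups did not overlap but came within 0.22 of each other, and the difference of 1.13 (SE 0.31) did not pass (adjusted p = 0.098). Myh4 (type IIb) had 12.9 and 12.6 in KO arrays, against 12.3 and 12.2 in het arrays, a difference of 0.50 (SE 0.13, adjusted p = 0.093). The difference of the IIb chain was the smallest of the 3, a contrast that was not itself tested. By mean signal, the 6 members with a mean signal over 12, Myh4 and Myl1 among them, had a median of 0.36, the 19 between 10 and 12 one of 0.67, and the 27 under 10 one of 0.59. The part of signal in these contrasts was not tested.

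The fast light chains had unlike estimates, a contrast that was not itself tested. Mylpf, the phosphorylatable light chain of fast fibres, had 12.1 and 11.9 in KO arrays, against 11.0 and 11.3 in het arrays, and rose by 0.84 (SE 0.14, limma adjusted p = 0.019). Myl1, the essential light chain, had 13.28 and 13.30 in KO arrays, against 13.22 and 13.04 in het arrays, and the difference of 0.16 (SE 0.12) did not pass (adjusted p = 0.53). Mybpc2, fast myosin-binding protein C, had 11.1 and 10.8 in KO arrays, against 10.1 and 10.2 in het arrays. It rose by 0.81 (SE 0.13, limma adjusted p = 0.017).

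The fast troponin complex was higher in all 3 subunits, though none passed by adjusted p. Tnnc2, which binds calcium, had 13.0 and 12.4 in KO arrays, against 12.0 and 12.2 in het arrays, a difference of 0.63 (SE 0.18). Tnni2, the inhibitory subunit, had 12.3 and 11.8 in KO arrays, against 11.3 and 11.5 in het arrays, a difference of 0.67 (SE 0.17). For both genes KO array 1 was the highest. Tnnt3, which binds tropomyosin, had 12.7 and 12.5 in KO arrays, against 12.3 and 12.2 in het arrays, a difference of 0.35 (SE 0.12). Adjusted p ran from 0.076 for Tnni2 to 0.16 for Tnnt3. At the Z-disc, fast alpha-actinin Actn3 had 11.4 and 11.3 in KO arrays, against 11.0 and 11.2 in het arrays, a difference of 0.27 (SE 0.12). Of the calcineurin-binding calsarcins of fast fibres, Myoz1 had 11.1 and 11.2 in KO arrays, against 10.7 and 11.0 in het arrays, a difference of 0.27 (SE 0.13). Myoz3 had 9.30 and 9.11 in KO arrays, against 8.71 in both het arrays, a difference of 0.49 (SE 0.12). The smallest of these fast differences lay close to the spread between arrays of one genotype.

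**Figure D2:**
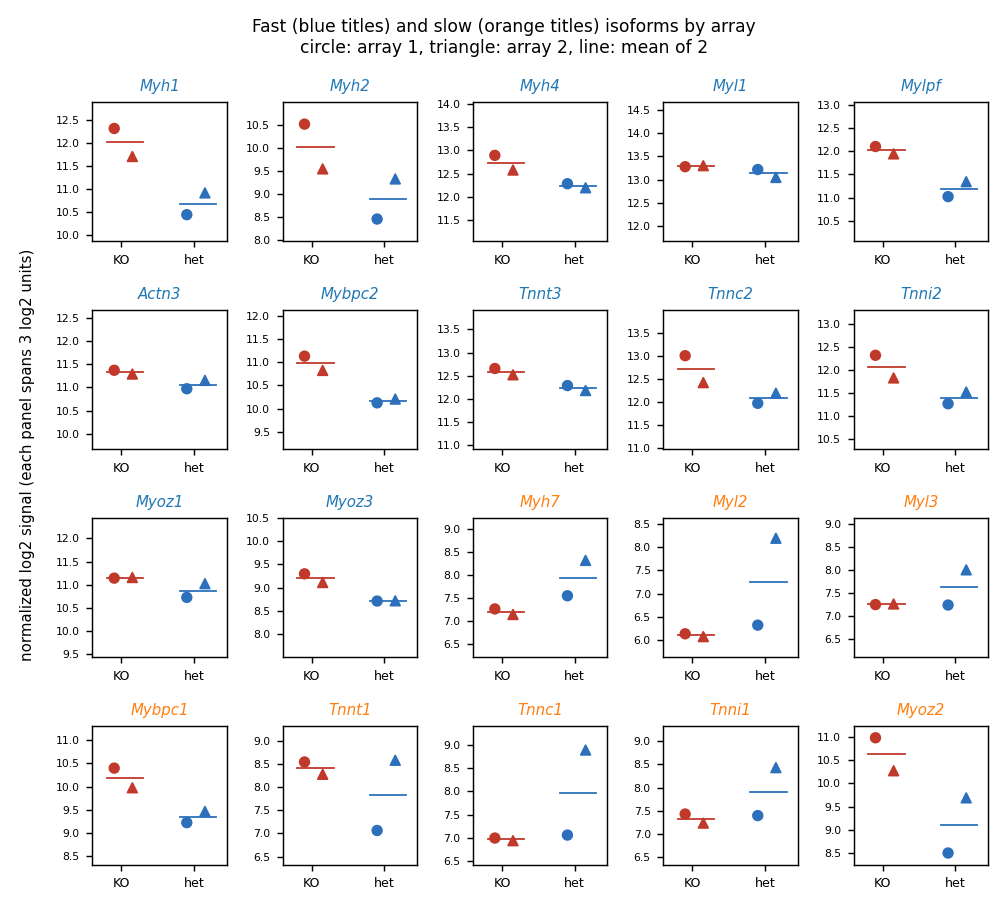
Normalized log2 signal of the 12 fast (blue titles) and 8 slow (orange titles) isoforms, KO arrays in red left of het arrays in blue, with each panel spanning 3 log2 units. Circles are array 1 and triangles array 2 of a genotype, and lines are means. In Myh7, Myl2, Myl3, Tnnc1 and Tnni1 the het triangle stands above the other 3 points.

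Slow-fibre isoforms did not move as a group. Of 8, Mybpc1 rose by adjusted p (1.47% of all) and none fell in the main analysis. There were 3 higher, where 54.1% of all tested probe sets were, and 5 lower, with a median of -0.47. At an unadjusted p under 0.05, 2 were higher (11.6% of all) and 3 lower (6.38% of all). Calls of lower slow isoforms depended on the processing. After median centring Myh7 passed as lower by limma's adjusted p, where 5.59% of all tested probe sets passed. With the replicate number as a block Myh7, Myl2 and Tnnc1 did, where 7.56% of all passed. Both KO arrays lay below both het arrays for Myh7, Myl2 and Tnnc1, against 22.1% of all. The 5 lower ones, Myh7, Myl2, Myl3, Tnnc1 and Tnni1, were highest in het array 2. Het array 1 lay nearer to the KO arrays than to het array 2 in each, but for Myh7 it stood 0.28 above the higher KO array. Myh7, the slow myosin heavy chain, had 7.27 and 7.15 in KO arrays, against 7.55 and 8.31 in het arrays, a difference of -0.73 (SE 0.21, adjusted p = 0.11). Myl2, the slow regulatory light chain, had 6.13 and 6.07 in KO arrays, against 6.32 and 8.19 in het arrays. The 3 arrays other than het array 2 read below the limit for testing of 6.673, so that gene entered the test through that array. Myl3, the slow essential light chain, had 7.25 and 7.27 in KO arrays, against 7.24 and 8.003 in het arrays. Tnnc1, slow troponin C, had 6.99 and 6.94 in KO arrays, against 7.06 and 8.89 in het arrays. Tnni1, slow troponin I, had 7.43 and 7.23 in KO arrays, against 7.40 and 8.43 in het arrays. The differences were -1.16 (SE 0.45) for Myl2, -0.36 (SE 0.21) for Myl3, -1.01 (SE 0.43) for Tnnc1 and -0.58 (SE 0.27) for Tnni1, with adjusted p from 0.22 to 0.40. For these 5 genes het array 2 exceeded het array 1 by 0.76 to 1.88, and het array 2 was the highest of 4 arrays in 6 of the 8 slow isoforms, against 19.0% of all tested probe sets. In the same array the keratinocyte and adipocyte genes were lower than in het array 1, by medians of -0.50 and -0.67, and their part in the slow-isoform values was not tested. Without het array 2 the differences of the 5 were -0.34 for Myh7, -0.22 for Myl2, 0.02 for Myl3, -0.09 for Tnnc1 and -0.06 for Tnni1. Without het array 1, with het array 2 as the only het sample, they ran from -2.09 for Myl2 to -0.74 for Myl3. The 5 were singled out after their values were seen, so no test is read from these values.

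The other slow isoforms read otherwise. Mybpc1, slow myosin-binding protein C, which fast fibres also contain, had 10.4 and 9.97 in KO arrays, against 9.22 and 9.46 in het arrays. It rose by 0.84 (SE 0.15, limma adjusted p = 0.027), close to the value of fast Mybpc2. Myoz2, the calsarcin of slow fibres and heart, had 11.0 and 10.3 in KO arrays, against 8.50 and 9.69 in het arrays, a difference of 1.54 (SE 0.33) that did not pass (adjusted p = 0.051). Both KO arrays lay above both het arrays for these 2 genes, as for 27.8% of all tested probe sets. Tnnt1, slow troponin T, had 8.54 and 8.28 in KO arrays, against 7.06 and 8.58 in het arrays. Its difference of 0.59 (SE 0.37) turned to -0.17 without het array 1, since 3 of the arrays read alike and that one was low. Tnnt1, Tnnc1 and Tnni1 encode one complex, and het array 2 exceeded het array 1 in all 3, by 1.52, 1.84 and 1.03. They went apart in the KO arrays, which read near het array 2 for Tnnt1 and near het array 1 for Tnnc1 and Tnni1.

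**Figure D3:**
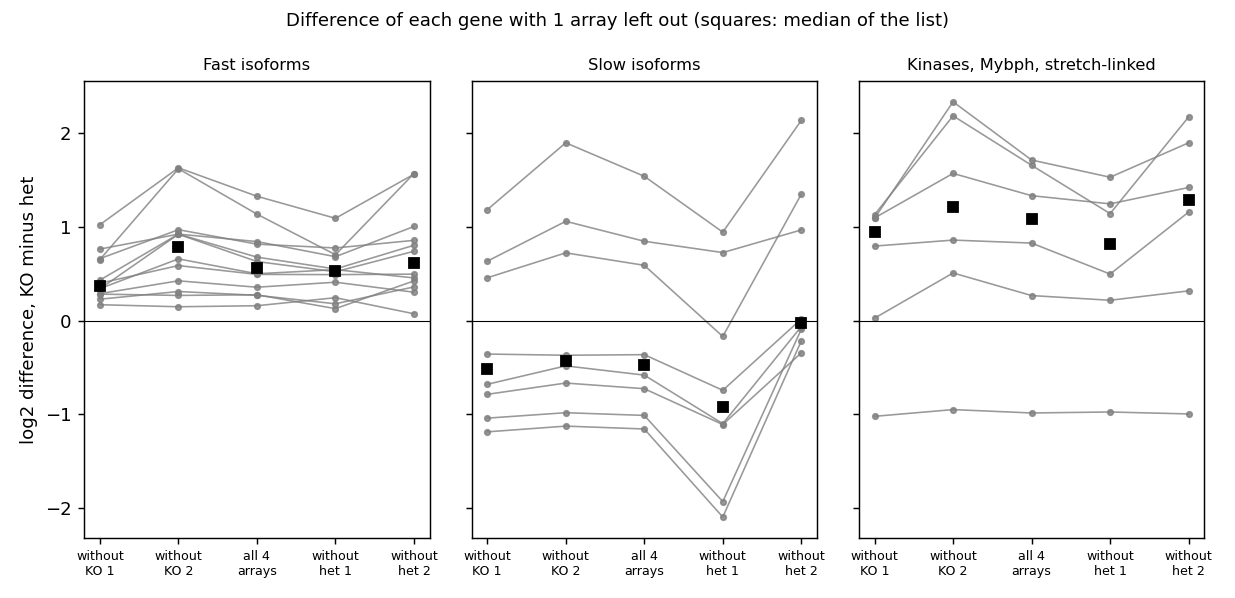
Log2 difference (KO minus het, vertical axis) of each gene with all 4 arrays and with 1 array left out (horizontal axis), where squares are the list medians. The fast median stays between 0.37 and 0.79, the slow median lies at -0.02 without het array 2 and at -0.92 without het array 1, and the lowest line of the right panel is Mylk4.

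Fibre type and muscle amount are read from the same values. The 12 fast isoforms spread over 1.17 on the log2 scale, from Myl1 to Myh1 as single estimates, and whether they differ among themselves was not tested. The list of 18 muscle genes outside the sarcomere had a median of 0.50, near that of the fast isoforms. That list was not split by fibre type, and its differences ran from -0.11 for Mb to 2.45 for Casq2. The slow isoforms had a median of -0.47, which was -0.02 without het array 2 and -0.92 without het array 1. Amount of muscle and fibre type cannot be told apart in bulk skin with 2 arrays per genotype.

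Developmental and cardiac isoforms gave no common direction. Myh3, the embryonic myosin heavy chain, had 6.75 and 6.21 in KO arrays, against 6.33 and 6.44 in het arrays, mostly below the limit for testing, and its groups overlapped. Myh8, the perinatal chain, had 8.19 and 7.82 in KO arrays, against 7.69 and 7.57 in het arrays, a difference of 0.37 (SE 0.14) that did not pass (adjusted p = 0.22). Actc1, cardiac alpha-actin, which developing skeletal muscle also makes, had 10.3 and 9.39 in KO arrays, against 10.4 and 10.2 in het arrays, and KO array 2 alone was low. Tnnt2, cardiac troponin T, had 7.93 and 7.79 in KO arrays, against 7.998 and 7.92 in het arrays. Actc1 differed by -0.44 (SE 0.23) and Tnnt2 by -0.10 (SE 0.12), with overlapping groups in both. None of the 3 tested members passed.

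Thin filament and length genes were higher in 7 of 8 members, where 54.1% of all tested probe sets were. Of these, Lmod3 and Tmod1 rose by adjusted p (1.47% of all). Lmod3, leiomodin 3, which nucleates actin filaments in skeletal muscle, had 9.11 and 8.99 in KO arrays, against 7.96 and 7.91 in het arrays. It rose by 1.12 (SE 0.11, limma adjusted p = 0.0054), the smallest p of the members, and the arrays of one genotype agreed within 0.12. Tmod1, which caps the pointed end of thin filaments, had 10.4 and 10.0 in KO arrays, against 9.37 and 9.49 in het arrays, and rose by 0.77 (SE 0.14). A second, dimmer probe set of Tmod1 differed by -0.07 (SE 0.12), so the 2 probe sets disagree. Neb, nebulin, had 12.4 and 12.1 in KO arrays, against 11.6 and 11.9 in het arrays, a difference of 0.53 (SE 0.15). Tmod4, the skeletal tropomodulin, had 10.9 and 10.8 in KO arrays, against 10.3 and 10.4 in het arrays, a difference of 0.49 (SE 0.12). Neither passed by adjusted p. Titin (Ttn) and skeletal alpha-actin (Acta1) differed by 0.37 and 0.35. Lmod2 differed by 0.10 and moved between -0.31 without het array 1 and 0.52 without het array 2. Nebl, nebulette, differed by -0.08, and its other probe set by 0.29 (SE 0.13).

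At the Z-disc and M-band, Myom3, Actn2, Myom2 and Myot rose by adjusted p (1.47% of all). Of 9 members 8 were higher, against 54.1% of all tested probe sets. Myom3, a myomesin of the M-band that links thick filaments in intermediate and slow fibres, had 10.1 and 9.37 in KO arrays, against 8.02 and 8.07 in het arrays. It rose by 1.69 (SE 0.20, limma adjusted p = 0.0067), a 3.23-fold difference, and both KO arrays stood more than 1 log2 unit above the het arrays. Actn2, the alpha-actinin of all fibres, had 11.8 and 11.1 in KO arrays, against 10.0 and 10.3 in het arrays, and rose by 1.32 (SE 0.20, limma adjusted p = 0.013). Fast Actn3 differed by 0.27, a contrast that was not itself tested. Myom2, the M-protein of fast fibres, had 9.95 and 9.69 in KO arrays, against 9.02 and 9.23 in het arrays, and rose by 0.69 (SE 0.13). Myot, myotilin, a filamin- and actinin-binding protein, had 11.9 and 11.7 in KO arrays, against 10.9 and 11.3 in het arrays, and rose by 0.68 (SE 0.14, limma adjusted p = 0.046). Myom1, Ldb3 and Xirp1 differed by 0.61, 0.73 and 0.80 without passing. Xirp2 (0.07) and Tcap, telethonin (-0.26), did not follow, and het array 2 was their highest array.

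Among kinases and stretch-linked genes, Ankrd2, Csrp3 and Mybph rose and Mylk4 fell. Ankrd2, an ankyrin-repeat protein that responds to stretch, had 10.7 and 9.47 in KO arrays, against 8.19 and 8.56 in het arrays, and rose by 1.71 (SE 0.31, limma adjusted p = 0.027). Csrp3, muscle LIM protein, had 10.2 and 9.19 in KO arrays, against 7.55 and 8.58 in het arrays, and rose by 1.65 (SE 0.35, limma adjusted p = 0.046). In both genes KO array 1 exceeded KO array 2 by more than 1 log2 unit, and without it the differences were 1.09 and 1.13. Mybph, myosin-binding protein H, had 10.9 and 10.5 in KO arrays, against 9.27 and 9.45 in het arrays, and rose by 1.33 (SE 0.16, limma adjusted p = 0.0067). Smpx, a small stretch-linked protein, had 11.2 and 11.1 in KO arrays, against 9.99 and 10.7 in het arrays, a difference of 0.82 that did not pass (adjusted p = 0.057). Mylk4, a kinase of the myosin light chain kinase family, had 6.64 and 6.57 in KO arrays, against 7.60 and 7.58 in het arrays. It fell by 0.98 (SE 0.13, limma adjusted p = 0.011), and its KO arrays read just below the limit for testing, so it passed that limit through the het arrays. Without the filter its limma adjusted p was 0.027. Mylk2, the skeletal myosin light chain kinase, differed by 0.27 (SE 0.15), which did not pass.

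Members that smooth muscle or other cells also express were mostly higher. Des, the intermediate filament desmin, had 12.2 and 12.0 in KO arrays, against 11.0 and 11.3 in het arrays, and rose by 0.97 (SE 0.13, limma adjusted p = 0.011). Nexn, nexilin, an actin-binding protein, had 8.33 and 8.25 in KO arrays, against 7.28 and 7.07 in het arrays, and rose by 1.12 (SE 0.13, limma adjusted p = 0.0065). Flnc, filamin C, had 11.0 and 9.83 in KO arrays, against 9.02 and 9.21 in het arrays, a difference of 1.29 (SE 0.28) that did not pass (adjusted p = 0.052). Tpm2 had 12.3 and 12.0 in KO arrays, against 11.7 and 11.6 in het arrays, a difference of 0.56 (SE 0.14). Tpm1 differed by 0.38. Tpm3, which holds slow-fibre and ubiquitous isoforms of tropomyosin, was the exception at -0.25 (SE 0.11), and its other probe sets were also lower, by up to -0.55 (SE 0.18). Smooth muscle markers were mostly lower in the same arrays. Of 10, 1 had a difference above 0, against 54.1% of all tested probe sets, and 9 were lower. By adjusted p 0 passed, and 2 were lower at an unadjusted p under 0.05 (6.38% of all). Both KO arrays lay below both het arrays for 5, against 22.1% of all. Cnn1, calponin, differed by -0.62 (SE 0.14), Myh11, the smooth muscle myosin heavy chain, by -0.36 (SE 0.14) and Acta2 by -0.30 (SE 0.14).

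**Figure D4:**
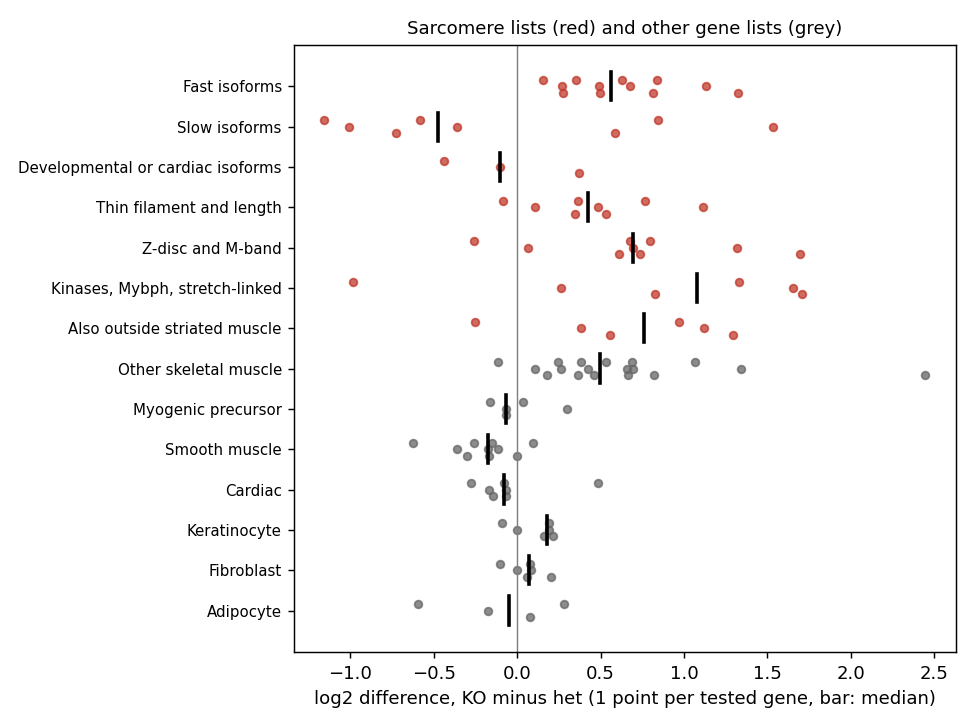
Log2 difference (KO minus het) of each tested gene in the 7 sarcomere lists (red) and in 7 other lists (grey), where bars are medians. The list of other skeletal muscle genes has a median of 0.50 and the smooth muscle list one of -0.17.

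Skeletal muscle genes outside the sarcomere were mostly higher as well. Of 18, 17 had a difference above 0, against 54.1% of all tested probe sets. By limma's adjusted p 7 rose, where 1.47% of all did, none fell and 11 did not pass. Casq2, calsequestrin 2, of the sarcoplasmic reticulum, differed by 2.45 (SE 0.15), Ampd1, muscle AMP deaminase, by 1.34 (SE 0.12) and Ckmt2, mitochondrial creatine kinase, by 1.06 (SE 0.13). Myogenic precursor genes gave a median of -0.06 over 5 tested members, with Pax7 at -0.06, Mymk at -0.16 and Cdh15 at 0.30. The cardiac list had a median of -0.08 over 7, and its largest value was Myl4, an atrial and embryonic light chain, at 0.49 (SE 0.11, adjusted p = 0.056). Nppa (-0.17) and Mybpc3 (-0.27) were lower and did not pass. For keratinocytes the median was 0.18 over 6, with Krt15 at 0.22, Krt5 at 0.19 and Krt14 at 0.19. Fibroblast genes had a median of 0.07 over 6, with Col3a1 at 0.20, Pdgfra at 0.08 and Dcn at -0.10. Adipocyte genes had one of -0.05 over 4, with Lep at -0.60, Plin1 at 0.28 and Fabp4 at -0.17. No gene of the precursor, smooth muscle, cardiac, keratinocyte, fibroblast and adipocyte lists passed by limma's adjusted p. At an unadjusted p under 0.05 these were 1 of 5, 2 of 10, 1 of 7, 0 of 6, 0 of 6 and 1 of 4 genes, against 17.9% of all tested probe sets.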

How the data were processed

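The submitters' processing notes name PLIER 2.0 and Affymetrix Expression Console 1.1.1. The deposited values of 35557 probe sets are taken as log2 from their range (2.54 to 14.9). For log base, scaling and genome build nothing is stated (not given in the sources used here). Probe sets were named from the platform annotation (21789 with 1 gene, 1621 with several, 12147 with none) and 21698 of the 1-gene probe sets were matched by gene identifier to RefSeq GRCm38.p6, which gave the symbol used. Quartiles differed between arrays by up to 0.337, so arrays were quantile normalized. Tested were 16341 probe sets of 1 gene with a mean above the 25th percentile (6.673), with limma 3.58.1 in R 4.3.3 (lmFit, eBayes with a trend, 2 residual degrees of freedom, Benjamini-Hochberg over all, threshold 0.05). A probe set averages over a whole transcript, so isoforms of 1 gene are not separated, and differences shrink near background. Arrays give no depth, and their number limits the precision. In simulated data for KO against het over 16341 probe sets, with spread drawn from limma's prior and 20 draws, 31.3% of 1.5-fold, 91.9% of 2-fold and 100% of 4-fold changes were called. Noise was independent between probe sets, so spread shared by muscle genes was not simulated. These rates need not hold for the members. Myh2 (1.13, SE 0.31), Flnc (1.29, SE 0.28) and Myoz2 (1.54, SE 0.33) did not pass, while Ankrd2 (1.71, SE 0.31) and Csrp3 (1.65, SE 0.35) did. Values in every array are given for the fast, slow and developmental or cardiac isoforms and for the 4 members of each other list with the smallest p, and 3 genes of smallest p are named per further list. Members, lists and tests were chosen with earlier results of these data known. Alternatives are given in the closing section.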

Additional observations from a re-analysis of the deposited data

How the results depend on the processing

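The number of probe sets past an adjusted p of 0.05 was 323 in the main analysis, 544 on the deposited values, 913 after median centring, 145 without a filter and 1235 with the replicate number as a block, and 43 to 950 with 1 array left out. The number of members past it was 16, and under the same alternatives 25, 32, 10 and 33, and 6 to 25 with 1 array left out. It was 6 without KO array 1, and these (Actn2, Ankrd2, Lmod3, Mybph, Myom3 and Nexn) were among the 16. With the probe sets of several genes included, an alternative chosen after seeing the data, both counts were 0, and the cause was not tested. Members past an unadjusted p of 0.05 were 29 to 42 in all settings. The median of the fast isoforms ran from 0.37 to 0.79, positive throughout. That of the slow isoforms was 0.84 with a filter at the 50th percentile, which leaves few of them, and without het array 2 it was 0.016 over the 7 that passed the filter and -0.02 over all 8, against -0.92 without het array 1. With 1 array left out, signs also turned for Myl3 (-0.74 to 0.016), Tnnt1 (-0.17 to 1.35), Actc1 (-0.88 to 0.0056), Nebl (-0.19 to 0.028), Lmod2 (-0.31 to 0.52), Xirp2 (-0.24 to 0.37), Krt5 (-0.12 to 0.50), Krt14 (-0.12 to 0.50) and Plin1 (-0.052 to 0.62), and Pax7 ran from -0.13 to 0.00. Nebl was 0.024 as deposited and 0.059 after median centring. Median centring moved the median of all probe sets to 0.10. Same-numbered arrays' deviations correlated at 0.167, and the labels do not say that a number marks a shared litter, so the block is given here only.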
